A study of Mus musculus with 6 samples.

Results

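Haemoglobin and erythroid genes were followed through RNA-seq of mouse abdominal aorta as 5 genes of the 55426 in the deposited table, namely the alpha-globin genes *Hba-a1* and *Hba-a2*, the beta-globin genes *Hbb-bs* and *Hbb-bt*, and *Alas2*. They were taken by exact gene symbol, and all 5 were found once and passed a minimum of 0.5 TPM (a level that takes transcript length into account, with an equal total in each library) on average over the libraries. The genes were chosen by their TPM and its group difference in these same libraries, as a measure of blood in the tissue, so their levels and differences are a description with no test. The 6 libraries came from male mice of C57BL/6J strain, 3 labelled control and 3 labelled *Prdm16* knockout. The knockout mice (*Prdm16*SMKO, here SMKO) carried *Prdm16* fl/fl and *Myh11*-CreERT2, a tamoxifen-activated Cre on the Y chromosome driven by a smooth muscle promoter, and the study describes the controls as wild-type mice with *Myh11*-CreERT2. Male mice 8 to 10 weeks old received tamoxifen by gavage at 75 mg/kg/day for 5 days, and RNA was taken 2 weeks later. The labels do not state tamoxifen separately for the controls, and Cre in smooth muscle cells leaves *Prdm16* intact in the other cells of the aorta. The labels name no animal for a library, so the spread between libraries may be partly technical.

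Adult haemoglobin carries oxygen as a tetramer of alpha and beta chains, each holding a haem group. *Alas2* is the erythroid form of 5-aminolevulinate synthase, the enzyme that starts haem synthesis and is made mainly by developing red cells, whereas other cells use *Alas1*. Mature mammalian red cells have lost their nucleus, and the youngest circulating ones, the reticulocytes, still hold globin and *Alas2* mRNA, so these messages are found in tissue that contains blood. Alpha globin is also made by the endothelium of small arteries, where it limits nitric oxide signalling. In a bulk sample, fewer cells of a type and less RNA per cell cannot be told apart.

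The 2 genes of each chain are near copies in their coding sequences, which are shown because they limit how far reads can be assigned to one copy. Untranslated bases can also separate the copies and were not compared. The annotated transcripts hold 699 bases for *Hba-a1*, 554 for *Hba-a2*, 628 for *Hbb-bs* and 703 for *Hbb-bt*. *Hba-a1* (chr11:32283511-32284465, plus strand) and *Hba-a2* (chr11:32296489-32297298, plus strand) differed by 1 of 426 coding bases, C381T, counted from 1 at the A of the start codon. That base is the last of codon 127 and lies at chr11:32284343 in *Hba-a1* and chr11:32297160 in *Hba-a2*. *Hbb-bs* (chr7:103826534-103828096, minus strand) and *Hbb-bt* (chr7:103812524-103813996, minus strand) differed by 1 of 441 coding bases, C417T, the last base of codon 139. It lies at chr7:103826692 in *Hbb-bs* and chr7:103812683 in *Hbb-bt*. The longest stretch without a difference was 380 bases for the alpha pair and 416 for the beta pair, against reads of 151 bases. Positions and sequence are from GENCODE M21 on GRCm38, and the capital marks the base that differs in coding bases 351 to 405 of the alpha genes and 387 to 441 of the beta genes.
Hba-a1: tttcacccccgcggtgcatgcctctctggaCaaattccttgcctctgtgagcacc
Hba-a2: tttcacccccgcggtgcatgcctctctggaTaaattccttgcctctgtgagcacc
Hbb-bs: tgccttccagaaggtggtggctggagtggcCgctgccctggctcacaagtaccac
Hbb-bt: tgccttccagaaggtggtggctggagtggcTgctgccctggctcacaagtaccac
Reads inside these stretches fit both copies, and the split between copies in the deposited values is an estimate. The level of a single copy is therefore uncertain, and the sum of a pair is less so.

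The upstream sequences are shown because the 5 genes moved together across libraries. Windows of 250 bases before the RefSeq start site of each gene were taken from the RefSeq promoter table (GRCm38.p6). They were searched on both strands for 4 motifs known from red cell genes. GENCODE exons covered from 3 bases of the *Hba-a2* window to 161 of the *Hba-a1* window, so RefSeq and GENCODE starts differ. The printed *Hbb-bs* bases lie inside the GENCODE span of that gene. The GATA motif was read as GATA with A or T before it and A or G after it, as bound by the GATA factors. The CACCC box is bound by KLF factors. The other motifs were the CCAAT box and, as the TATA box, the letters ATATAA. Capitals mark matches that lie whole within the printed bases, which leave out annotated exons.
Hba-a2, chr11:32296242-32296488, plus strand: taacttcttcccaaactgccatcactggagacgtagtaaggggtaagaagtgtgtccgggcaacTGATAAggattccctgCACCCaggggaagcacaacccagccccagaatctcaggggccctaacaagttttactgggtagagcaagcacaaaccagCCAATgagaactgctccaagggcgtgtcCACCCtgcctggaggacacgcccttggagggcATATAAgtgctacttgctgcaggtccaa
Hbb-bs, chr7:103827929-103828011, minus strand: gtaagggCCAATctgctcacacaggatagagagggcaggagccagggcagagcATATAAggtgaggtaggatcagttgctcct
Hbb-bt, chr7:103813997-103814173, minus strand: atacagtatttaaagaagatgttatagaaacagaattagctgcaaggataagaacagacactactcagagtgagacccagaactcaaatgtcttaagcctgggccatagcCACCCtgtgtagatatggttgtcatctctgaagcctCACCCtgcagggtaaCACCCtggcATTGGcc
Alas2, chrX:150547167-150547374, plus strand: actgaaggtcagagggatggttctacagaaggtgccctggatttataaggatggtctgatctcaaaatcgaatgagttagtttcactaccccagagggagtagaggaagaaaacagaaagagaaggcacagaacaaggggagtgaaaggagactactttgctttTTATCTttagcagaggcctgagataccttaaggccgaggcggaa
The window of *Hba-a1* was the same as that of *Hba-a2* over 247 of 247 aligned bases. Within the full windows, the alpha genes each held 1 GATA motif, 2 CACCC, 1 CCAAT and 1 ATATAA. *Hbb-bs* held 1 of each, whereas *Hbb-bt* held 3 CACCC, 3 CCAAT and 1 ATATAA with no match to the GATA letters. *Alas2* held 1 GATA motif and 3 CACCC, with no match to the other two. Of 32536 windows of the same length in the table, 26.5% held the GATA motif, 52.1% CACCC, 33.8% CCAAT and 9.09% ATATAA. Some matches overlap annotated exons or lie nearer the start and are thus not in the printed bases, and a match is not evidence of a bound site.

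The aortas showed the smooth muscle genes that the label calls for. Over the 6 libraries, the contractile actin *Acta2* lay between 5256 and 13020 TPM and smooth muscle myosin *Myh11* between 1488 and 3242 TPM. *Prdm16*, the targeted gene, was at 33.42, 36.83 and 30.77 TPM in control replicates 1 to 3 and at 20.75, 27.67 and 14.77 TPM in SMKO replicates 1 to 3. Control and SMKO libraries were separate, and the log2 difference was -0.70 (limma adjusted p = 0.376), or -0.92 without SMKO 2. In the comparison of all genes, 56 of 15775 genes tested were called at an adjusted p under 0.05, which is 0.355%. An unadjusted p under 0.05 was reached by 8.74%, and the groups did not overlap in 12.8%. The library of SMKO replicate 2 stood apart from the others in the genes described here, so the difference of each of the 5 genes and the median difference of each list are given with it and without it. Mitochondrial genes took 15.8% of its TPM, the lowest share of the 6 libraries, which ranged up to 27.4%. Ribosomal RNA took 29.9% of its TPM, within the range of 15.6% to 31.4% over the 6 libraries.

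Among the alpha globins, *Hba-a2* was the higher copy in every library. Its level was 1253, 479 and 476 TPM in control replicates 1 to 3 and 2003, 7649 and 839 TPM in SMKO replicates 1 to 3. SMKO 2 was far above the other libraries, and control 1 lay above SMKO 3, so the groups overlapped. The mean was 736 ± 447 TPM in control mice and 3497 ± 3643 TPM in SMKO mice (SD, n = 3 each), so the SD in SMKO mice exceeded the mean. The log2 difference of 1.83 (SE 0.72) became 0.98 without SMKO 2. Here and below, the SE is limma's moderated one, which is drawn toward the trend of all genes. For each of the 5 genes it is smaller than the gene's own spread would give. On the log2 scale the SD of *Hba-a2* was 0.80 over control and 1.61 over SMKO libraries.

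*Hba-a1* was at 606, 253 and 254 TPM in the control libraries and at 1040, 3555 and 425 TPM in the SMKO libraries, in replicate order. Again SMKO 2 was highest, SMKO 1 came next, and SMKO 3 lay below control 1. The mean was 371 ± 204 TPM in control mice and 1673 ± 1658 TPM in SMKO mice (SD, n = 3 each). The log2 difference of 1.78 (SE 0.68) became 0.97 without SMKO 2.

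*Hbb-bs*, the main adult beta globin of these mice, was at 1163, 370 and 518 TPM in the control libraries. In the SMKO libraries it was at 1673, 7331 and 820 TPM. The order from the top was SMKO 2, SMKO 1, control 1, SMKO 3, control 3 and control 2, and the groups overlapped through control 1 and SMKO 3. The mean was 684 ± 422 TPM against 3275 ± 3539 TPM (SD, n = 3 each). The log2 difference was 1.83 (SE 0.73), or 0.95 without SMKO 2.

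*Hbb-bt*, the minor beta copy, was at 134, 36.9 and 75.2 TPM in the control libraries and at 216, 955 and 99.1 TPM in the SMKO libraries. It kept the order of *Hbb-bs* over the libraries. The log2 difference of 1.92 (SE 0.76) was the largest of the 5 genes, and it was 1.02 without SMKO 2.

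*Alas2* (chrX:150547375-150570638, plus strand) was far lower than the globins, at 10.7, 4.33 and 5.10 TPM in the control libraries. In the SMKO libraries it was at 14.9, 78.6 and 7.97 TPM. This erythroid enzyme thus followed the same order of libraries as *Hbb-bs*. Its mean was 6.72 ± 3.49 TPM in control mice and 33.8 ± 38.9 TPM in SMKO mice (SD, n = 3 each). The log2 difference was 1.69 (SE 0.72), or 0.76 without SMKO 2.

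**Figure D1:**
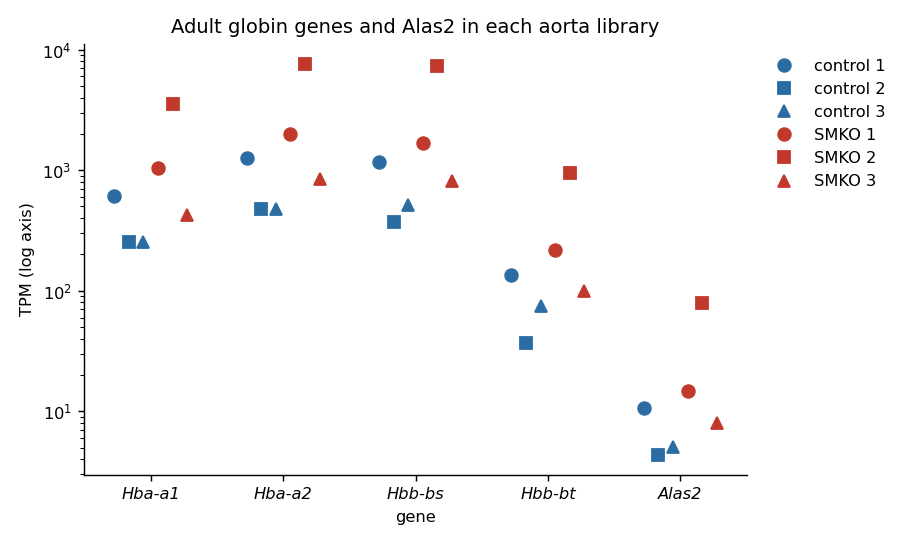
The level in TPM (log axis) of each of the 5 genes is plotted for each library, with control libraries in blue, SMKO libraries in red and replicates 1, 2 and 3 as circles, squares and triangles. SMKO 2 is the highest point for all 5 genes, reaching 7649 TPM for Hba-a2, and control 1 lies above SMKO 3 for all 5.

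In all 5 genes the groups overlapped, against a background of 12.8% of tested genes in which they did not. The order of libraries was the same in 4 of the genes, and *Hba-a2* differed from it only in its lowest pair, control 3 and control 2, at 476 and 479 TPM. Among the 15770 other genes tested, 10 (0.0634%) had the order of *Hbb-bs*. The 5 genes were chosen from these same libraries, and the copies of each globin pair share reads. Their common order is therefore a description, and that share is not a test of it. The highest library exceeded the next by 3.42-fold for *Hba-a1*, 3.82-fold for *Hba-a2*, 4.38-fold for *Hbb-bs*, 4.41-fold for *Hbb-bt* and 5.28-fold for *Alas2*. From the lowest library to the highest the fold ranged from 14.1 for *Hba-a1* to 25.9 for *Hbb-bt*, whereas the median over all tested genes was 1.66. Leaving out SMKO 2 brought that fold to between 3.44 for *Alas2* and 5.87 for *Hbb-bt*.

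The spread within a group was wide in both groups. On the log2 scale the SD of the 5 genes over SMKO libraries lay between 1.54 and 1.67, larger than in 97.6% to 98.0% of tested genes. Over control libraries it lay between 0.65 and 0.93, larger than in 92.6% to 96.5%. The controls, like the SMKO mice, thus had 1 library well above its replicates in these genes, namely control 1. Leaving out each library in turn gave log2 differences from 0.97 to 2.50 for *Hba-a1*, 0.98 to 2.57 for *Hba-a2*, 0.95 to 2.53 for *Hbb-bs*, 1.02 to 2.65 for *Hbb-bt* and 0.76 to 2.38 for *Alas2*. The smallest value came each time from leaving out SMKO 2, and SMKO was higher in all of them.

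Together the 4 globins summed to 3156, 1138 and 1324 TPM in the control libraries and to 4932, 19489 and 2183 TPM in the SMKO libraries. The 5 genes took 0.317%, 0.114% and 0.133% of all TPM in control replicates 1 to 3. In SMKO replicates 1 to 3 they took 0.495%, 1.96% and 0.219%. *Hba-a2* was the gene with rank 11 by TPM in SMKO 2 and rank 183 in control 2. *Alas2* ranked 1031 in SMKO 2 and 10204 in control 2, so a change in rank was seen for the enzyme as well as for the abundant globins.

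Ratios between the genes varied far less than their levels. The sum of the alpha genes over that of the beta genes was 1.43, 1.80 and 1.23 in control replicates 1 to 3 and 1.61, 1.35 and 1.37 in SMKO replicates 1 to 3. Its coefficient of variation over the 6 libraries was 14.0%, whereas that of the globin sum was 131%. The means of the ratio were 1.49 ± 0.288 in control and 1.45 ± 0.143 in SMKO mice (SD, n = 3 each), and the groups overlapped. SMKO 2, with the highest globin sum, had a ratio between the others, and the ratio was highest in control 2, where the sum was lowest.

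*Hba-a2* over *Hba-a1* was the steadiest ratio, from 1.87 in control 3 to 2.15 in SMKO 2, with a coefficient of variation of 5.46%. *Hbb-bs* over *Hbb-bt* ranged from 6.88 in control 3 to 10.03 in control 2, with a coefficient of variation of 13.1%. Both ratios compare near copies whose reads were divided by estimate. *Alas2* stood at 3.40, 3.80 and 3.85 TPM per 1000 TPM of globin in the control libraries and at 3.02, 4.03 and 3.65 in the SMKO libraries. The highest of these values was 1.34 times the lowest, while the globin sum spanned 17.1-fold. The enzyme that starts erythroid haem synthesis and the globins thus kept a nearly fixed proportion in both groups, SMKO 2 included.

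**Figure D2:**
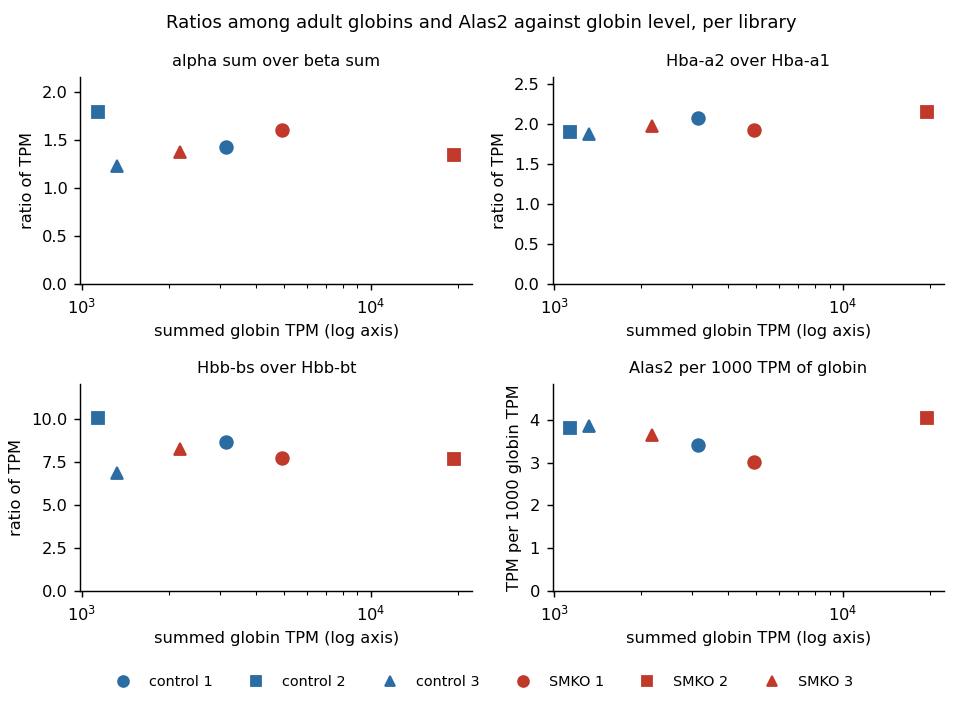
Each panel plots a ratio of TPM values against the summed globin TPM of the library (log axis), with 1 point per library, control in blue and SMKO in red. The points stay in narrow bands, such as 3.02 to 4.03 for Alas2 per 1000 TPM of globin, while the sum runs from 1138 to 19489 TPM.

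The other globin genes varied in how they were ordered over the libraries. Of the 10 in the list 2 were tested, with 0 called against 0.355% of all genes, and 2 genes are too few to read from that count. Their median log2 difference was 0.17, or 0.34 without SMKO 2. *Cygb*, cytoglobin, an oxygen-binding globin of fibroblasts and smooth muscle, was at 82.4, 97.5 and 106 TPM in the control libraries and at 82.3, 125 and 110 TPM in the SMKO libraries (limma adjusted p = 0.935). *Ngb*, the neuronal neuroglobin, was between 0.21 and 3.35 TPM and lowest in SMKO 2 (limma adjusted p = 0.985). Muscle myoglobin, *Mb*, reached at most 1.11 TPM and *Adgb* at most 0.66 TPM. The embryonic genes *Hba-x*, *Hbb-y*, *Hbb-bh1* and *Hbb-bh2* were listed at 0 in all 6 libraries. The theta-like genes *Hbq1a* and *Hbq1b*, which lie beside the alpha genes, were listed above 0 in SMKO 2 alone, at 0.41 and 0.49 TPM.

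The rest of the haem synthesis pathway showed little of the difference seen in *Alas2*. All 14 genes of that list were tested, 0 of them were called against 0.355% of all genes, and 0 reached an unadjusted p under 0.05 against 8.74%. Their median log2 difference was 0.05, or 0.13 without SMKO 2, beside 0.02 over all tested genes. *Alas1*, the form of the first enzyme used outside red cells, was at 37.7, 42.2 and 22.2 TPM in the control libraries and at 26.1, 38.7 and 54.1 TPM in the SMKO libraries. Its highest library was SMKO 3, unlike *Alas2*. *Fech*, ferrochelatase, which inserts iron at the last step, was at 30.1, 35.2 and 23.6 TPM in control and at 34.6, 44.3 and 30.04 TPM in SMKO libraries. SMKO 2 was its highest library by 1.26-fold, compared with 5.28-fold for *Alas2*. *Urod*, an enzyme of the middle of the pathway, lay between 21.02 and 29.95 TPM, and *Tmem14c*, a mitochondrial transporter of the haem precursor, between 47.4 and 75.7 TPM. SMKO 2 was the highest library for 3 of the 14 genes (21.4%), near the 19.5% over the other genes tested.

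Genes that bind or break down haemoglobin and haem showed smaller differences than the globins. Of 13 such genes, 11 were tested and 0 were called against 0.355% of all genes, and 0 reached an unadjusted p under 0.05 against 8.74%. The median log2 difference was 0.08 in the list, or 0.09 without SMKO 2. The iron-storing ferritin chains were abundant, *Fth1* lying between 2860 and 3875 TPM and *Ftl1* between 444 and 627 TPM. *Lrp1*, a receptor that takes up haem bound to hemopexin, lay between 177 and 217 TPM. *Hp*, haptoglobin, which binds free haemoglobin, was at 70.5, 43.0 and 28.8 TPM in the control libraries and at 40.9, 25.9 and 368 TPM in the SMKO libraries. It was thus lowest in SMKO 2, where the globins were highest, and its single high value was in SMKO 3.

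Of the 40 other erythroid genes, 39 were found in the table, 23 were tested and 0 were called against 0.355% of all genes. An unadjusted p under 0.05 was reached by 4 of the 23, all higher in SMKO, against 8.74% of all genes in either direction. Among them were *Isg20*, *Car2* and *Tmod1*, and 5 of the 23 had no overlap between groups against 12.8% of all. Their median log2 difference was 0.45, or 0.20 without SMKO 2, and 21 of the 23 were higher in SMKO mice, or 19 without that library. These genes and those named next beyond the 4 highest were singled out after their values were seen, except where a defining red cell gene is concerned.

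Defining red cell genes were low. *Slc4a1*, the band 3 anion exchanger, was at 0.51, 0.27 and 0.26 TPM in the control libraries and at 0.54, 1.79 and 0.76 TPM in the SMKO libraries, with SMKO 2 highest (limma adjusted p = 0.676). The erythroid transcription factor *Gata1* was listed at 0 in all 3 control libraries and in SMKO 3, and was at 0.11 TPM in SMKO 1 and 0.41 TPM in SMKO 2. *Klf1*, which activates adult beta globin, was at most 0.27 TPM, in SMKO 3. *Hemgn*, *Kel*, *Pklr* and *Cldn13* were listed at 0 in all libraries, and *Ahsp*, the alpha-globin chaperone, was not matched in the table.

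The 4 highest genes of the erythroid list are used by many other cells. *Aqp1*, a water channel of red cells and endothelium, was at 89.3, 121 and 79.1 TPM in control and at 64.8, 50.7 and 89.7 TPM in SMKO libraries, so SMKO 2 was its lowest. The mitophagy receptor *Bnip3l* lay between 47.6 and 69.1 TPM. *Epb41*, the membrane skeleton protein 4.1, was at 24.6, 25.8 and 18.8 TPM in control and at 26.1, 44.2 and 26.5 TPM in SMKO libraries, with SMKO 2 the highest by 1.67-fold. *Mkrn1*, a ubiquitin ligase, was at 40.8 TPM in SMKO 2 and between 15.7 and 23.6 TPM elsewhere. *Bpgm*, which makes the 2,3-bisphosphoglycerate that tunes the oxygen affinity of haemoglobin, was at 43.6 TPM in SMKO 2 and between 13.7 and 18.2 TPM elsewhere. SMKO 2 was the highest library for 13 of the 23 erythroid genes (56.5%), against 19.5% of the other genes tested. Without SMKO 2 only 21 erythroid genes met the minimum of 0.5 TPM. Some of the 23, *Slc4a1* among them, were thus tested only through their level in SMKO 2, which raises that share.

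**Figure D3:**
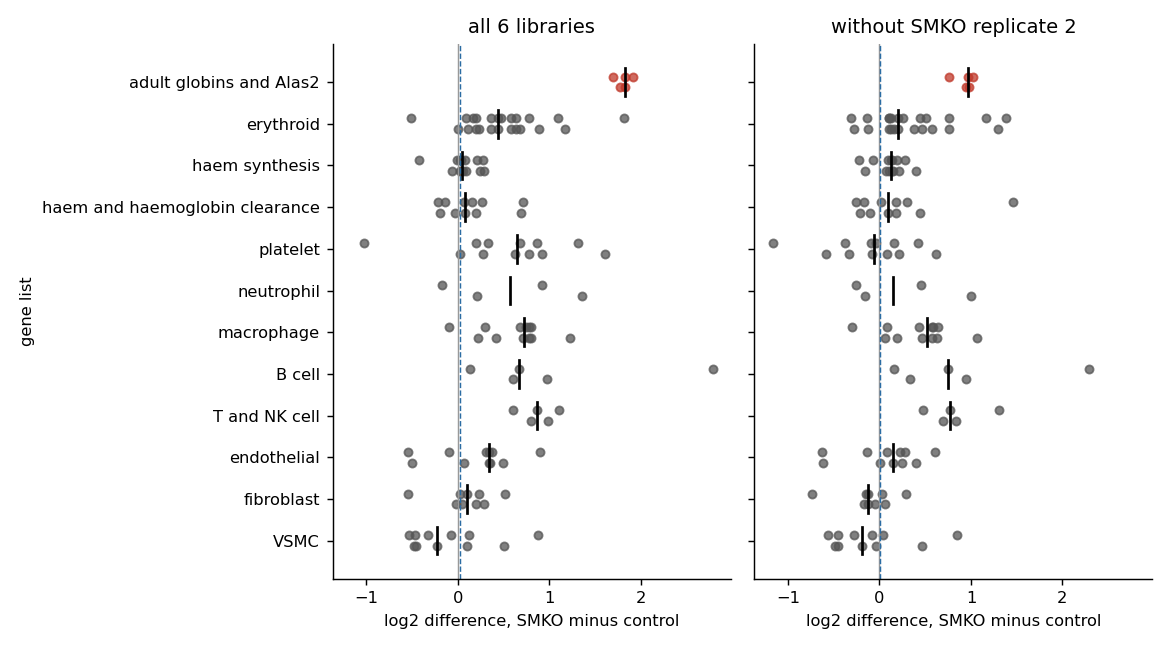
The log2 difference (SMKO minus control) of each tested gene is plotted by list, with all 6 libraries on the left and without SMKO 2 on the right, black bars at the medians and a dashed line at the median of all tested genes. The 5 globin and Alas2 values (red) lie between 1.69 and 1.92 on the left and between 0.76 and 1.02 on the right, and the platelet median moves from 0.65 to -0.06.

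Markers of other blood cells were read beside the globins. Platelets share blood with red cells, and 15 platelet genes were found, of which 12 were tested and 0 were called against 0.355% of all genes. An unadjusted p under 0.05 was reached by 1 of the 12, *Itgb3*, against 8.74%. The summed platelet level was 104 to 112 TPM in control libraries and 78.0, 216 and 74.4 TPM in SMKO replicates 1 to 3, so SMKO 2 was highest. Without *Itgb3*, which smooth muscle also makes, the sum was 44.6 to 59.9 TPM in control libraries and 49.3, 184 and 54.9 TPM in SMKO replicates 1 to 3, a choice made after the data were seen. SMKO 2 was then still highest, and SMKO 1 and SMKO 3 lay within the control range. SMKO 2 was the highest library for 11 of the 12 genes (91.7%), against 19.5% of the other genes tested. Without SMKO 2 only 10 platelet genes met the minimum of 0.5 TPM. Some of the 12 were thus tested only through their level in SMKO 2, which raises that share. High shares were not limited to platelet genes. In the lists that follow, the share was 91.7% for macrophage, 77.8% for fibroblast, 75% for neutrophil and 45.5% for endothelial genes. It was 40% for B cell, 20% for T and NK cell and 9.09% for VSMC genes. The platelet median log2 difference of 0.65 became -0.06 without SMKO 2, and the number higher in SMKO mice went from 11 to 5. None of the 15 was at 0 in all libraries, and their part in the globin difference was not tested.

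Among single platelet genes, the chemokine *Ppbp* was at 35.9 TPM in SMKO 2 and between 0.33 and 5.28 TPM elsewhere. *Pf4*, platelet factor 4, was at 18.3, 7.21 and 9.86 TPM in control and at 12.8, 38.3 and 17.2 TPM in SMKO libraries. These platelet products were thus highest in the library where the globins were highest, although for *Pf4* control 1 came next and not SMKO 1. *Thbs1*, also made by vessel wall cells, was at 45.04 TPM in SMKO 2 and between 19.2 and 32.4 TPM elsewhere. *Itgb3*, an integrin of platelets and of smooth muscle, went the other way, at 52.8, 67.9 and 43.7 TPM in control and at 28.7, 32.3 and 19.6 TPM in SMKO libraries (log2 difference -1.02, limma adjusted p = 0.15).

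White cell markers were uneven. Of 15 neutrophil genes 4 were tested, 0 were called against 0.355% of all genes and 1 reached an unadjusted p under 0.05 against 8.74%, and *Mpo*, *Ly6g* and *Stfa2l1* were listed at 0 in all libraries. Their sum was 2.74 to 4.92 TPM in control libraries and 3.46, 11.8 and 4.68 TPM in SMKO replicates 1 to 3. *Mmp9*, *Lcn2*, *S100a9* and *Csf3r* were the highest of them, all at most 3.01 TPM. The median log2 difference was 0.57, or 0.15 over the same 4 genes without SMKO 2. Without that library only 3 of them met the minimum of 0.5 TPM, and their median was -0.16. The choice of tested genes thus rested partly on SMKO 2. The neutrophil sum was low in every library and highest in SMKO 2, and its relation to the globins was not tested.

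Macrophage genes were higher in SMKO 2 as well, but their order over libraries differed from that of the globins. All 12 were tested, 0 were called against 0.355% of all genes and 7 reached an unadjusted p under 0.05 against 8.74%, each higher in SMKO. Without SMKO 2, 1 of the 12 reached it. Their sum was 89.7 to 139 TPM in control libraries and 142, 259 and 199 TPM in SMKO replicates 1 to 3, so SMKO 3 exceeded SMKO 1, unlike in the globins. *Lyz2*, lysozyme, lay between 29.6 and 85.5 TPM, and the complement genes *C1qa*, *C1qb* and *C1qc* between 10.2 and 50.8 TPM. The median log2 difference was 0.73, or 0.52 without SMKO 2.

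Lymphocyte lists were low in TPM and higher in the SMKO libraries. The 10 B cell genes, 5 of them tested, summed to 7.93 to 16.0 TPM in control libraries and to 24.1, 62.6 and 31.1 TPM in SMKO replicates 1 to 3. *Igkc*, the kappa light chain constant region, was the larger part in the SMKO libraries, at 2.71, 1.74 and 5.37 TPM in control and at 12.3, 47.1 and 22.2 TPM in SMKO libraries (limma adjusted p = 0.0638), while *Ighm* was the larger part in control 1 and control 2, at 8.45 and 5.22 TPM, and *Cd79a* and *Cd79b* reached at most 1.39 TPM. The 12 T and NK cell genes, again 5 of them tested, summed to 1.92 to 4.58 TPM in control and to 8.16, 8.66 and 10.8 TPM in SMKO libraries, with *Lck*, *Trbc2*, *Trac* and *Gzma* highest. In neither list was a gene called against 0.355% of all genes, and in each 1 gene reached an unadjusted p under 0.05 against 8.74%. The median log2 difference was 0.67 in the B cell list, or 0.75 without SMKO 2. In the T and NK cell list it was 0.86, or 0.77 without SMKO 2. Control means of *Cd79a*, *Cd79b* and *Pax5* (0.33, 0.32 and 0.49 TPM) lay under the minimum for testing. So did those of *Trbc2*, *Gzma* and *Cd2* (0.49, 0.20 and 0.29 TPM). The choice of tested genes thus rested partly on the SMKO libraries. With no minimum the medians were 0.56 over 10 B cell genes and 0.59 over 12 T and NK cell genes. In that setting 9 of the 10 and all 12 were higher in SMKO mice. SMKO 2 was thus highest for the B cell sum as for the globins, and SMKO 3 for the T and NK cell sum.

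Markers of the vessel wall were not ordered as the globins were. The 11 VSMC genes summed to 15526 to 26246 TPM in control libraries and to 18635, 14525 and 12191 TPM in SMKO replicates 1 to 3. Besides *Acta2* and *Myh11*, *Tagln* lay between 3001 and 5501 TPM and *Cnn1* between 965 and 2006 TPM. The 11 endothelial genes summed to 355 to 427 TPM in control and to 374, 613 and 416 TPM in SMKO libraries, and *Pecam1*, the adhesion molecule of endothelium and platelets, was at 200 TPM in SMKO 2 and between 68.7 and 99.6 TPM elsewhere. The other endothelial genes of high level were *Egfl7*, between 76.9 and 97.1 TPM, *Vwf*, between 25.5 and 107 TPM, and *Erg*, between 28.6 and 47.6 TPM. The 9 fibroblast genes, led by *Gsn*, *Dcn*, *Col1a1* and *Serpinf1*, summed to 2062 to 2279 TPM in control and to 1782, 3143 and 2265 TPM in SMKO libraries. In these 3 lists 0 genes were called against 0.355% of all genes. An unadjusted p under 0.05 was reached by 4 VSMC genes (2 higher and 2 lower in SMKO), 3 endothelial genes (1 higher and 2 lower) and 1 fibroblast gene (lower), against 8.74% of all genes. Without SMKO 2 it was reached by 1, 2 and 1 genes. The median log2 difference was -0.23 in the VSMC list, or -0.20 without SMKO 2, and 0.34 in the endothelial list, or 0.14 without that library. In the fibroblast list it was 0.10, with 7 of 9 genes higher, and -0.12 without SMKO 2, with 3 of 9 higher. SMKO 2 thus held the highest sums of the endothelial and fibroblast lists together with its globin level, and the part of either in the globin values was not tested.

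**Figure D4:**
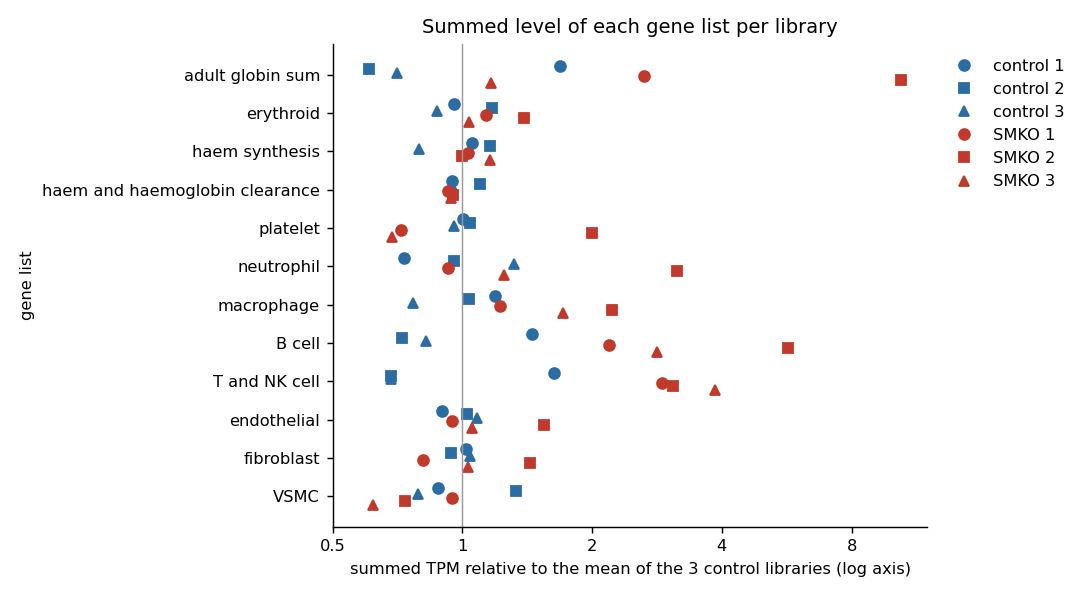
Summed TPM of the adult globins and of the 11 gene lists named on the axis, per library, relative to the mean of the 3 control libraries (log axis), with control in blue and SMKO in red. The globin sum spans the widest range, from 1138 to 19489 TPM, and among the sums plotted SMKO 2 is highest for the globin, erythroid, platelet, neutrophil, macrophage, B cell, endothelial and fibroblast sums.

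The genes whose profile over the 6 libraries was most like that of the globins and *Alas2* were ranked by the SD of the difference between their log2(TPM + 0.5) and the mean of the 5 genes. This SD was between 0.0668 for *Hbb-bs* and 0.224 for *Hbb-bt* among the 5 themselves, and its median over 15770 other genes was 1.51. The closest was *Tubb1*, the beta tubulin of platelets, with an SD of 0.39 and levels of 1.44, 0.12 and 0.72 TPM in control and 1.38, 13.4 and 1.11 TPM in SMKO libraries. The next in order were *Slpi*, *Gm49450*, *Gm13378*, *Ywhaq-ps3*, *Gnrh1*, *F5*, *Gm13349*, *Gm49391* and *Gm13486*. Of these, *Gm13486* was listed at 0 in 5 libraries, *Gm49450*, *Ywhaq-ps3* and *Gm13349* in 4, *Gm13378* and *Gnrh1* in 3 and *Slpi* in 1, so they met the minimum mainly through SMKO 2 and their likeness rests on few values above 0. Among genes of at least 5 TPM on average, a minimum chosen after the data were seen, the closest included *Nrgn* and *Parvb* with SDs of 0.78 and 0.79, followed by *Isg20*, *Pf4*, *Ctla2a*, *Bmp6*, *Hist1h4n*, *Gm19705* and *Tmem158*. No gene outside the 5 had an SD as small as that of *Hbb-bt*, the least close of them. Each of the 5 is part of the mean it was measured against, and near copies share reads. Their smaller SDs are thus partly built in, and the comparison cannot show that they are closer than other genes. These are likenesses over 6 libraries that share 1 library of high level, and were not tested.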

How the data were processed

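RNA from abdominal aorta was sequenced by the authors after poly A selection, as 3 control and 3 SMKO libraries, at an average of 40 M read pairs per the labels. The submitters' processing notes name cutadapt 2.3, FastQC 0.11.8, STAR 2.7.8a, RSEM 1.3.3, MultiQC 1.7 and the build GRCm38, without their settings. The deposited values are TPM rounded to 2 decimals. TPM keeps no depth, so the depth of single libraries is unknown, no counting error or limit of detection was computed, and 3 libraries per group set the precision. No pair of libraries was identical.

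Expression was taken as log2(TPM + 0.5) where a gene averaged 0.5 TPM or more, and log2 differences, which understate changes of low genes, are on that scale. The groups were compared with limma 3.58.1 (R 4.3.3) using a trend on expression, two-sided, with Benjamini-Hochberg adjusted p-values over all 15775 genes, called under 0.05. The fit was tested on simulated data. Python 3.11.15 with numpy 2.4.6, pandas 2.3.3 and matplotlib 3.10.9 produced the summaries and plots. Sequences are from RefSeq's promoter table, where all 5 genes matched, and GENCODE M21. The 5 genes and the 12 lists, written from general knowledge, were chosen with earlier results of these data known. The text names the 5 genes, *Prdm16*, all globin family genes, the 4 highest and any called gene of each list, defining erythroid genes, and the 10 genes closest in profile, apart from items not reported here. Alternatives were other pseudocounts, minima and scalings, other variance settings, array weights, a replicate block and leaving out each library.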

Additional observations from a re-analysis of the deposited data

How the results depend on the processing

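The mean log2 difference of the 5 genes was 1.81, and all 5 were higher in SMKO mice under 18 of 18 alternatives. It was 1.28 with array weights, 0.94 without SMKO 2 and up to 2.53 when another library was left out. The number of genes called, 56 (29 higher), was 10 with no minimum, 153 (61 higher) with median-of-ratios size factors, 129 (46 higher) with quantile normalization, 123 without mitochondrial and ribosomal RNA, 33 with no trend, 112 with a robust trend and 494 with array weights, and between 5 (without control 2) and 61 (without SMKO 1) when a library was left out. The count was 17 without control 1 as without control 3, and 28 without SMKO 2.

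Counts of called list genes equalled the main count in 206 of 216 cases. With array weights, 494 of all 15775 genes tested were called. Among them were 1 of 23 erythroid, 1 of 12 platelet, 1 of 5 B cell, 1 of 12 macrophage, 1 of 11 VSMC and 2 of 11 endothelial genes. The platelet gene *Itgb3* was also called with size factors, where 153 of 15768 genes were called. The B cell gene *Igkc* was called with a minimum of 2 TPM (77 of 12125 genes called) and without SMKO 1 (61 of 15609). In addition, 1 erythroid gene was called without SMKO 3 (39 of 15813). The B cell and erythroid counts thus ranged from 0 to 1 when a library was left out. The cause of these changes was not tested.

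With a replicate block for the shared replicate numbers, 4 genes were called. Deviations of same-numbered libraries correlated at -0.131, -0.11 and 0.0188, and those of differently numbered libraries at -0.167 to 0.242. Deviations from means of 3 libraries cannot decide whether the libraries were paired. The mean difference of the 5 genes was 1.81 with the block. With 3 libraries per group and 1 of them so far above the rest, the size of the globin difference is poorly fixed.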
